A study of Homo sapiens and Mus musculus with 24 samples.

Results

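The 450 BRG1 regions described here are sites in wild-type mouse fetal liver that held a BRG1 peak in both libraries but overlapped no hemogen region found in both hemogen libraries. They were 450 of 13213 WT BRG1 regions, or 3.41% (95% Wilson interval 3.11 to 3.73, counting error only). Peaks of the 2 BRG1 libraries were merged where they shared 1 bp, on the 19 autosomes and chromosome X, and a merged interval with a peak of each library counted as a region. Hemogen regions were built likewise from the 2 HA libraries, and a BRG1 region became a member when it overlapped none of the 25631 hemogen regions. The numbers inside the hemogen peak names differ from those of the sample titles, so which hemogen list is library 1 or 2 follows the deposit's assignment of files and is uncertain. The member rule uses both lists alike. The regions were thus chosen by their BRG1 and HA peak calls, and BRG1 and HA values below are descriptions with no test. With single peaks of WT BRG1 library 1 alone in place of regions the number was 3952, and with those of library 2 alone 1656. The name needs a qualification. Of the 450 regions, 408 overlapped a hemogen peak in at least 1 of the 3 hemogen lists, and only 42 overlapped none.

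The libraries came from fetal livers at embryonic day 14.5. The groups used were BRG1 immunoprecipitates from hemogen KO embryos, and BRG1, H3K27ac and HA immunoprecipitates from WT embryos, with 2 libraries each. Hemogen was precipitated through an HA tag although these livers carry a WT label. Neither the origin of that tag, the design of the knockout allele nor the use of separate or pooled embryos is stated in the labels, so any spread between libraries may be technical. An HA precipitate of untagged liver and H3K27ac in KO liver were not analysed here.

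BRG1 is an ATPase subunit of the BAF (SWI/SNF) complexes, which use ATP to slide or evict nucleosomes and so open promoters and enhancers to transcription factors. In erythroid cells such sites are bound by factors such as GATA1, TAL1 and KLF1, and active ones carry acetylation of histone H3 at lysine 27 (H3K27ac), a mark laid down by the acetyltransferases p300 and CBP. Hemogen is found in the nuclei of blood-forming cells. At this age the fetal liver is the main organ of red cell formation, but it also holds hepatoblasts, macrophages and other blood cells. The files give peaks of the whole organ.

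The lists held 3205 and 5592 peaks in KO BRG1 libraries 1 and 2, and 26329 and 21165 in WT BRG1 libraries 1 and 2. The hemogen lists held 53055 and 42866 peaks and the H3K27ac lists 69882 and 45545. Every fold enrichment (ratio to local background), −log10 p-value and −log10 q-value is the authors' own value for a peak, and ranks peaks only within its list. Read heights were recovered from the authors' folds and p-values under an assumption about the caller. On that reading, the immunoprecipitates of KO BRG1 libraries 1 and 2 had 0.404 and 0.341 of the depth of WT BRG1 library 1. WT BRG1 library 2 had 1.04 of it. A region absent from a KO list may therefore lie below what that list could call. No gene or sequence is given for any region, because a mouse genome and annotation were not used here. Coordinates are 1-based. The build is not named in the sources. Contig names, and a last chromosome 1 position of 195241899, match mm10.

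As a set, the members were weaker BRG1 regions than those with hemogen. Strength was taken as the average, over both WT BRG1 lists, of a region's percentile by −log10 p. It had a median of 34.9 in the members, with quartiles of 23.9 and 49.2. It was 64.0 in the 12763 BRG1 regions with hemogen, with quartiles of 44.4 and 82.1, and 63.0 over all regions. The median authors' fold was 3.71 and 3.81 in WT BRG1 libraries 1 and 2 for the members, against 4.60 and 4.48 for the regions with hemogen. In reads, the median summit height was 23 and 24 for the members, against 30 and 29 for the regions with hemogen. These heights could be read for 437 and 436 of the 450 members. Quartiles of the members were 20 and 27 reads in library 1 and 21 and 27 in library 2, so the 2 distributions overlapped. A −log10 q of at least 5 in both BRG1 libraries was reached by 58 members (12.9%) and by 54.0% of the regions with hemogen.

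**Figure D1:**
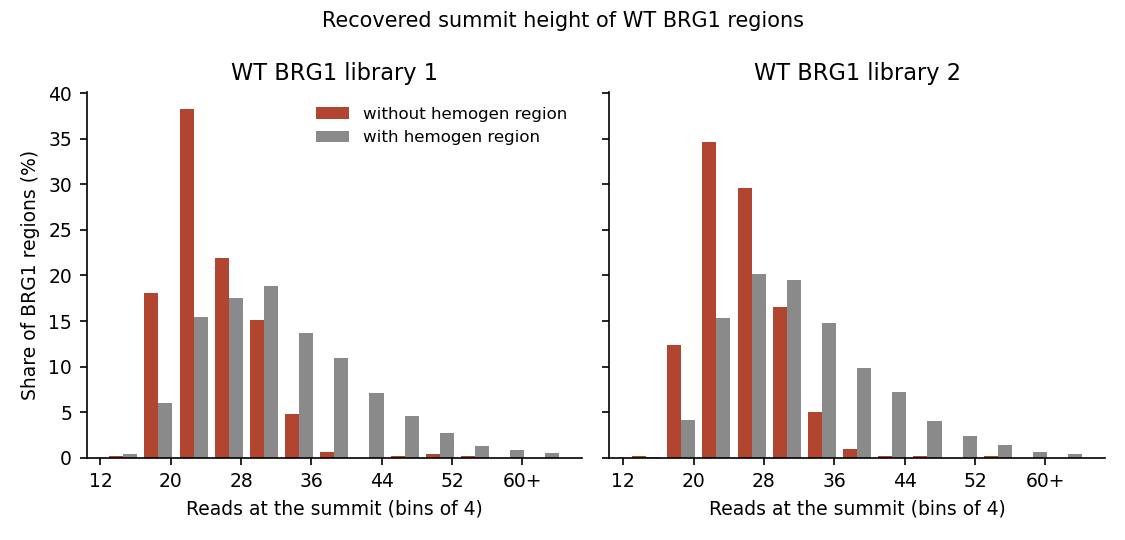
Reads at the BRG1 summit in WT BRG1 library 1 (left) and library 2 (right), in bins of 4 reads, as the share of regions in percent; red bars are BRG1 regions without a hemogen region and grey bars those with one. The members peak at lower heights, with medians of 23 and 24 reads against 30 and 29, and the distributions overlap.

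Lack of a hemogen region fell steeply with BRG1 strength. In the weakest decile of BRG1 regions 167 of 1322 were members (12.6%), in the next 94 of 1321 (7.12%), and in the strongest 1 of 1321 (0.0757%). The 3 strongest deciles together contributed 7, 2 and 1 members. All 450 overlapped a peak of the WT BRG1 group list, as did all regions with hemogen.

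**Figure D2:**
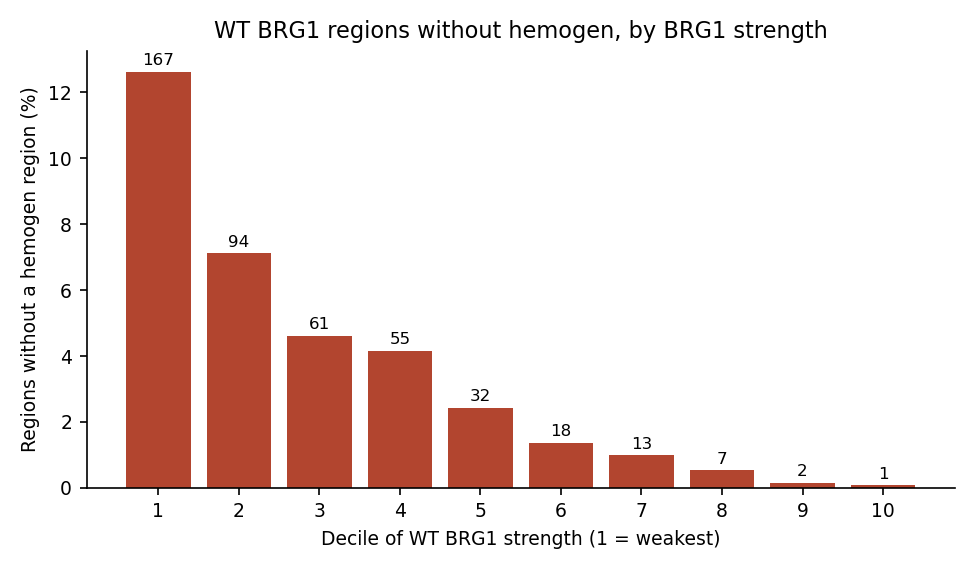
Share of WT BRG1 regions that overlap no hemogen region (vertical axis, percent) in each decile of WT BRG1 strength (horizontal axis, weakest at left); the number over each bar counts the members. The share is 12.6% in the weakest decile and 0.0757% in the strongest.

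The members were also narrow. Their median width was 419 bp, with quartiles of 327 and 545 bp, against 801 bp for the regions with hemogen. A narrow region has less length with which to meet a hemogen region, and width and overlap are tied by construction. The BRG1 summits of libraries 1 and 2 lay a median of 94 bp apart in the members and 116 bp apart in the regions with hemogen. The local background at the summit, as a multiple of the lowest value that 5 or more peaks had, had a median of 2.06 and 1.98 in the members and 2.12 and 2.09 in the regions with hemogen. A background above 4 in either library marked 9 members, and it was not counted over all regions with hemogen. Among regions with no H3K27ac peak in any list it marked 4 of 49 members and 20 of 1249 regions with hemogen. The member with the highest background, at chromosome 9 from 123925437 to 123925768, had 7.63 and 7.33 with folds of 2.32 and 2.3.

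Most members carried some hemogen signal that was not called at the same place in both libraries. A peak of hemogen library 1 but not library 2 overlapped 197 members, and a peak of library 2 but not library 1 overlapped 100. A further 24 overlapped a peak of each library, but at places that shared no base. Another 87 overlapped a peak of the hemogen group list only. The remaining 42 overlapped no hemogen peak of any list. Over all 13213 BRG1 regions, 97.7% overlapped hemogen library 1, 96.5% library 2 and 99.7% the group list. In the members the shares were 49.1%, 27.6% and 90.4%. The rule fixed the low library shares, and nothing is read from them. By group list, 43 members lacked hemogen, 1 of which overlapped a peak of library 1.

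**Figure D3:**
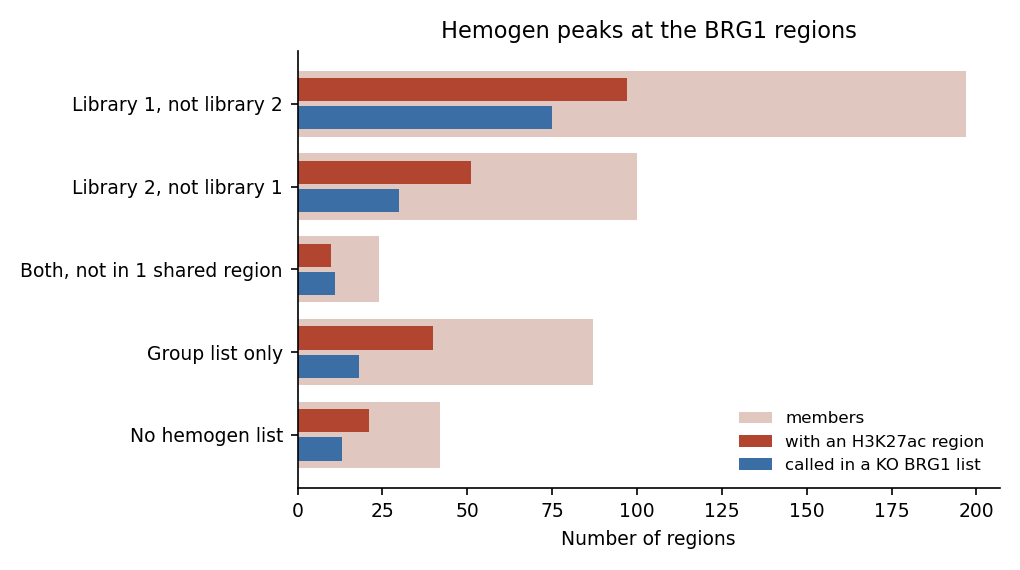
Number of BRG1 regions without a hemogen region (pale bars), by the hemogen lists whose peaks they overlap, with the number that overlap an H3K27ac region (red) and a peak of any KO BRG1 list (blue). The classes hold 197, 100, 24, 87 and 42 regions from top to bottom.

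Where a hemogen peak was present, it was weaker than at the other BRG1 regions. In hemogen library 1 the authors' fold had a median of 3.74 at the 221 members with a peak, against 5.85 at the regions with hemogen. In library 2 it was 3.75 at 124 members, against 5.28. The median of the whole hemogen list was 4.06 in library 1 and 4.12 in library 2, and the median percentile of the members' peaks by −log10 p was 46.9 and 40.01 within these lists. In the group list the 407 members with a peak stood higher, at a median percentile of 69.2, against 93.6 for the regions with hemogen. In hemogen library 1 the −log10 q was 5 or more at 98 of the 221 members with a peak, against 11931 of 12686 regions with hemogen. In library 2 it was 5 or more at 40 of 124 members, against 11099 of 12632. Over the whole lists 27005 of 53055 peaks in library 1 and 21215 of 42866 in library 2 reached it. In the group list the median −log10 q was 7.47 over 407 members and 20.4 over the regions with hemogen. Among the 87 members seen only by the group list the median was 5.22.

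Members lay close to hemogen even where they did not overlap it. The median distance to the nearest hemogen region was 347 bp, with quartiles of 141 and 1041 bp. A hemogen region lay within 500 bp of 266 members (59.1%) and within 1000 bp of 335 (74.4%). Only 75 members (16.7%) had none within 10000 bp, and 12 had none within 100000 bp. Another BRG1 region lay within 1000 bp of 266 members (59.1%) and of 52.1% of the regions with hemogen. The members were mostly spread singly: 65 fell into 30 groups with gaps of at most 10 kb, and the fullest held 4, at chromosome 1 from 134075935 to 134086573. All 4 overlapped H3K27ac and 1 was called in the KO.

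**Figure D4:**
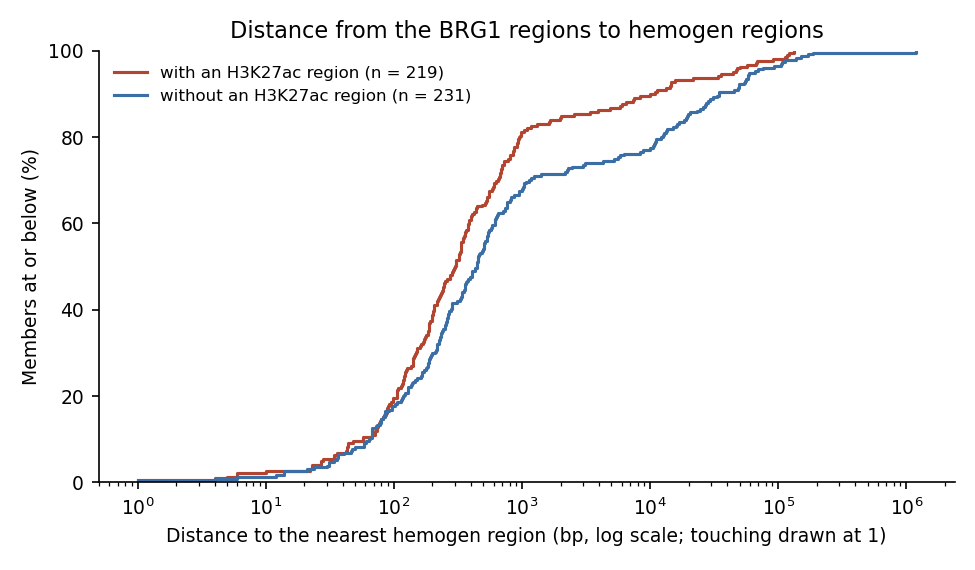
Cumulative share of members (vertical axis, percent) by distance to the nearest hemogen region (horizontal axis, bp, log scale), for the 219 with an H3K27ac region (red) and the 231 without (blue). Within 1000 bp lay 81.3% of the acetylated members and 68.0% of the others.

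At the border of the rule, the nearest members and the nearest non-members differed by a few bases. The member at chr18:70573383-70573830 touched a hemogen region end to end and had WT BRG1 folds of 5.41 in library 1 and 3.78 in library 2. The member at chr4:44165067-44165467 also touched one and had folds of 3.10 and 3.50. The member at chr11:69760207-69760465 lay 4 bp from one and had 3.92 and 4.43. Just outside, the region at chr2:27999360-27999837 shared 5 bp with a hemogen region and had folds of 3.25 and 3.95. That at chr11:96034842-96035309 shared 6 bp and had 3.17 and 4.87, and that at chr1:58393078-58393482 shared 8 bp and had 3.05 and 4.43. In WT BRG1 library 1 these members' folds ran from 3.10 to 5.41, against 3.05 to 3.25 just outside. In library 2 they ran from 3.50 to 4.43, against 3.95 to 4.87. With so few regions on each side, nothing is read from these ranges. In all, 9 members lay within 10 bp of a hemogen region, and 4 non-members overlapped one by 10 bp or less. The median overlap of non-members was 746 bp.

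The strongest members show how much hemogen signal the rule still allows. The first, at chromosome 19 from 4305447 to 4306556, had BRG1 folds of 6.18 and 6.11 in WT libraries 1 and 2, or 48 and 38 reads at the summit. Hemogen library 2 had a peak there with a fold of 4.98, library 1 had none, and the group list gave 3.86. H3K27ac folds were 3.02 and 4.81. In the KO, library 2 had a BRG1 peak with a fold of 3.58 and library 1 had none. Its BRG1 was thus strong in both WT libraries, and a hemogen peak was called there in library 2 and the group list but not in library 1.

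The second, at chromosome 8 from 95487733 to 95488491, was called in both KO BRG1 libraries. Its BRG1 folds were 5.95 and 5.90 in KO libraries 1 and 2, against 6.81 and 6.63 in WT libraries 1 and 2. Hemogen library 1 gave a fold of 3.99, library 2 gave none, and the nearest hemogen region lay 47071 bp away. H3K27ac folds were 5.11 and 3.16. The authors' folds set side by side come from lists called at different depths and are not a measure of change.

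The sixth, at chromosome 14 from 115041340 to 115041796, was the strongest with no hemogen peak in any list, although a hemogen region lay 188 bp away. Its BRG1 folds were 6.88 and 6.08 in KO libraries 1 and 2, against 5.55 and 7.16 in WT libraries 1 and 2. The WT folds stood on 24 and 28 summit reads. H3K27ac was strong there, with folds of 5.66 and 7.30 and an acetylated region 1538 bp wide. Of the 42 members without any hemogen peak, this was also the only one with a BRG1 peak in both KO libraries.

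The other members among the 10 strongest had BRG1 folds from 4.67 to 9.03 in WT library 1 and from 3.68 to 6.63 in WT library 2. The third lay at chr3:107331890-107332964, the fourth at chr4:140701848-140702479 and the fifth at chr10:111473333-111473920. The seventh lay at chr17:36866747-36867140, the eighth at chrX:7966005-7966606, the ninth at chr4:156254313-156255922 and the tenth at chr7:35646708-35647476. All 10 overlapped a peak of the KO BRG1 group list and of the H3K27ac group list, which overlapped 53.6% and 89.9% of all BRG1 regions. In the 3 strongest deciles 69.6%, 82.9% and 91.6% of the regions with hemogen were called in a KO list, so such calls were common among strong regions. The eighth had the highest WT BRG1 fold of any member in library 1, 9.03, but 4.05 in library 2. Its hemogen fold of 7.56 in library 1 was likewise the highest among the members, and hemogen library 2 had no peak there. The tenth overlapped hemogen peaks of both libraries, with folds of 5.65 and 4.15, that did not meet each other.

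Beyond these, the rule for strong members called in both KO libraries named chromosome 15 from 10469578 to 10470411. Its BRG1 folds were 5.28 and 3.20 in KO libraries 1 and 2, against 4.98 and 5.06 in WT libraries 1 and 2. The H3K27ac folds were 4.19 and 4.0, and the nearest hemogen region lay 14442 bp away.

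The 42 members with no hemogen peak in any list were 0.318% of all BRG1 regions. They were weaker than the other 408 members, with a median strength of 28.4 against 35.7, and narrower, with a median of 348 against 426 bp. Both BRG1 libraries reached a −log10 q of 5 at only 3 of them. H3K27ac regions overlapped 21 of the 42 (50.0%, 95% Wilson interval 35.5 to 64.5) and 198 of the 408 (48.5%, 43.7 to 53.4). The KO lists called 13 of the 42 (31.0%, 19.1 to 46.0) and 134 of the 408 (32.8%, 28.5 to 37.5). The intervals give counting error over regions only, and they overlapped for both measures. Regions are not replicates, and no test of a difference between the 42 and the 408 was made.

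After the region on chromosome 14, the strongest members without any hemogen peak were of unlike kinds. That at chromosome 13 from 20163387 to 20164182 had folds of 3.54 and 5.73 in WT BRG1 libraries 1 and 2, no H3K27ac peak in any list and no hemogen region within 11210 bp. The KO group list had a peak there with a fold of 5.98, and neither KO library did. The region at chromosome 2 from 179975923 to 179976216 had folds of 4.85 and 4.90, lay 255 bp from a hemogen region and was called in no KO list. Its only H3K27ac peak was in the group list, with a fold of 3.71. The region at chromosome 6 from 47650975 to 47651553 had low folds of 3.11 and 2.76 on 52 and 53 reads, with a local background of 5.94 and 7.0 times the lowest. The region at chromosome X from 48344814 to 48345189 had folds of 5.41 and 3.94 and no H3K27ac peak. It had peaks in KO library 2 and the KO group list, with folds of 4.47 and 4.72.

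About as many members as not were acetylated. Of the 450, 219 (48.7%, 95% Wilson interval 44.1 to 53.3) overlapped an H3K27ac region found in both libraries, against 63.9% of all WT BRG1 regions and 64.4% of those with hemogen. A further 120 overlapped a peak of 1 H3K27ac library or unmatched peaks of both, 62 only a group list peak, and 49 (10.9%) no H3K27ac peak in any list. Some H3K27ac list thus overlapped 401 members (89.1%), against 90.2% of all BRG1 regions. In H3K27ac library 1 the share was 67.8% of the members, against 76.0% of all BRG1 regions, and in library 2 it was 55.6% against 69.1%. With the group list it was 88.9% against 89.9%. H3K27ac was not used to choose the members. These shares are over regions of the same 2 libraries, not over animals, and no test was made.

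The lower share went with weaker BRG1. When the regions with hemogen were weighted to the members' distribution over the 10 deciles of BRG1 strength, 49.9% of them overlapped an H3K27ac region. The difference was then −1.23 percentage points, against −15.8 without weighting. By single library it was 3.89 points in library 1 and 0.17 in library 2, against −8.54 and −14.0 without weighting. In the weakest decile 44.3% of 167 members and 43.9% of the regions with hemogen were acetylated, and in the second 48.9% and 46.9%. In deciles 3 to 8 the members were lower in each, with 45.9% against 50.0% in decile 3, 49.1% against 53.1% in decile 4 and 53.1% against 59.9% in decile 5. In deciles 6 to 8, which held 18, 13 and 7 members, the shares were 61.1% against 62.5%, 69.2% against 70.1% and 57.1% against 75.8%. Weighted by region width in place of strength, the difference turned to 6.40 points.

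At the acetylated members H3K27ac lay in the upper part of its lists, below its standing at acetylated regions with hemogen, in regions of about the same width. The H3K27ac regions over the 219 members had a median width of 753 bp, against 747 bp over the regions with hemogen. H3K27ac strength, computed as for BRG1, had a median of 70.7, against 79.8. The median H3K27ac fold was 4.10 and 4.08 in libraries 1 and 2 at the members with a peak, against 4.52 and 4.51. The BRG1 summit of library 1 lay inside the H3K27ac region in 196 of 219 members (89.5%) and in 76.7% of acetylated regions with hemogen. The H3K27ac region was usually the wider of the 2 at members, whose median BRG1 width was 0.634 of it, while at regions with hemogen the ratio was 1.34.

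**Figure D5:**
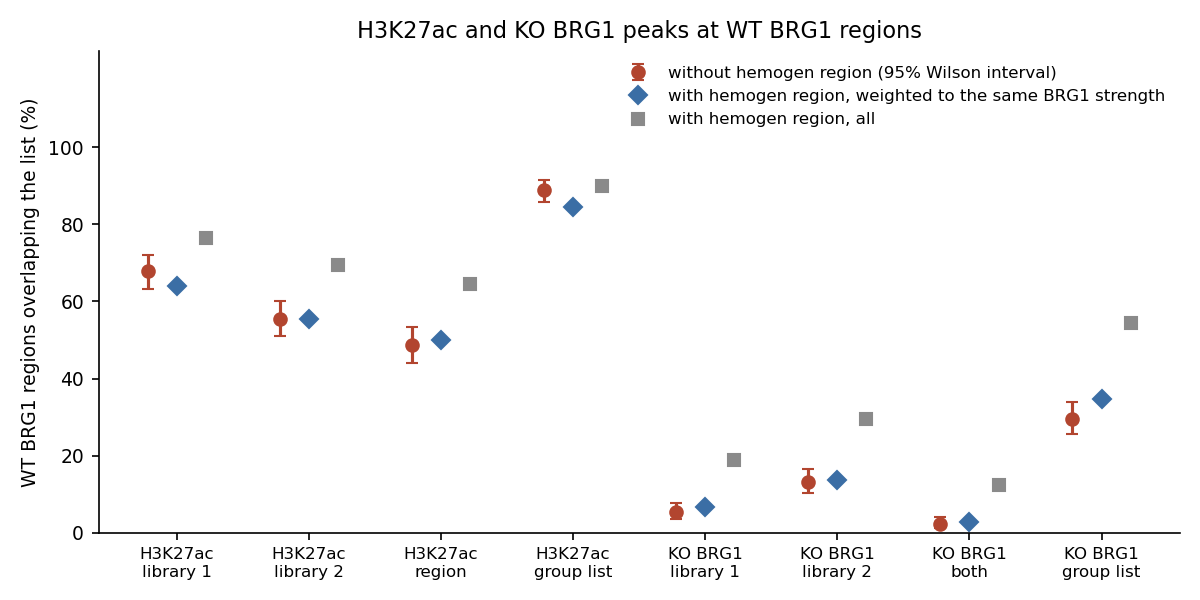
Share of WT BRG1 regions (vertical axis, percent) that overlap each H3K27ac or KO BRG1 list (horizontal axis): red points are regions without a hemogen region, with 95% Wilson intervals, blue diamonds regions with hemogen weighted to the same BRG1 strength, and grey squares all regions with hemogen. Red points sit below the grey squares in each list and, outside the H3K27ac group list (88.9% against 84.4% weighted and 89.9% unweighted), nearer to the blue diamonds, as for the H3K27ac region at 48.7% against 49.9% and 64.4%.

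In the KO, 147 of the 450 members (32.7%, 95% Wilson interval 28.5 to 37.1) overlapped a BRG1 peak in at least 1 of the 3 KO lists. The share was 55.3% over all WT BRG1 regions and 56.1% over those with hemogen. KO library 1 called 24 members (5.33%), against 18.4% of all BRG1 regions, and KO library 2 called 59 (13.1%), against 28.9%. Both KO libraries called 10 members (2.22%), against 12.1%, and the KO group list called 133 (29.6%), against 53.6%. The group list alone gave 74 of the 147 calls (50.3%), against 35.9% of the calls at regions with hemogen. With 2 libraries per genotype, and WT BRG1 peaks required by the rule, no test of KO against WT was made for the members.

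These shares too went with BRG1 strength. Weighted to the members' strength, 36.4% of the regions with hemogen were called in the KO, which left a difference of −3.77 points, against −23.4 without weighting. In KO library 1 the weighted share was 6.74% and the difference −1.41 points. In KO library 2 it was 13.8% and the difference −0.66 points. Weighted by width in place of strength, the difference for any KO list was 1.03 points. From the third to the first decile, counted from the weakest, the called share of members was 31.1%, 28.7% and 23.4%, against 37.8%, 33.2% and 26.2% of the regions with hemogen. The members called in the KO had a median strength of 41.8 and a median width of 491 bp, against 31.9 and 399 bp for those not called.

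Acetylated members were called in the KO more often than the others. Of the 219 with an H3K27ac region 89 (40.6%) were called, against 70.7% of all acetylated WT BRG1 regions, and of the 231 without 58 (25.1%), against 28.1% of all such regions. The class without an H3K27ac region was mixed, and its parts differed in direction. With a peak of 1 H3K27ac library or unmatched peaks of both, 28.3% of 120 members were called, against 42.5% of such regions with hemogen. With an H3K27ac peak in the group list only, it was 19.4% of 62 members, against 21.3%. With no H3K27ac peak in any list, it was 24.5% of 49 members, against 8.33%. After weighting for strength within each class, 50.9% of the regions with hemogen that had an H3K27ac region were called. Of those without an H3K27ac region, many of which had a peak in some H3K27ac list, 22.6% were called. The members stood 10.3 points below the first of these and 2.46 above the second.

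Members with no H3K27ac peak in any list went the other way. Of these 49, 12 (24.5%) were called in a KO list, against 8.94% of all 1298 such BRG1 regions. Among those with hemogen it was 8.33%, or 7.33% when weighted over 5 strata of strength. Of the 12 calls 6 fell on the 12 members that had neither a hemogen nor an H3K27ac peak in any list. KO library 1 called 0 of the 49 and KO library 2 called 5 (10.2%), against 1.20% and 2.56% of the regions with hemogen, so the count rests on library 2 and the group list. A local background above 4 marked 4 of the 49, and 3 of these were among the 12 called, each by the KO group list only. Without such regions, a choice made after seeing the data, 9 of 45 members (20.0%) were called, against 7.65% of the regions with hemogen. Whether background plays a part in the other calls was not tested.

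The standing of the members' peaks within the KO lists differed between the KO libraries. The median percentile of −log10 p was 58.2 at 24 members in KO library 1, against 55.3 at the regions with hemogen, and 43.6 at 59 members in KO library 2, against 58.2. In the KO group list it was 40.9 at 133 members, against 65.1, lower as in library 2. The KO summit lay a median of 131 and 101 bp from the WT library 1 summit at the members.

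Acetylation was least frequent in the members farthest from hemogen, and the KO call varied less with distance. Of the 84 members within 100 bp of a hemogen region 51.2% were acetylated and 33.3% were called in the KO. At 100 to 300, 300 to 1000 and 1000 to 10000 bp, 54.9%, 52.7% and 45.0% were acetylated. The called shares there were 31.1%, 31.0% and 35.0%. Of the 75 members farther than 10000 bp away, 23 (30.7%) were acetylated and 27 (36%) were called. The far members were not weaker, with a median strength of 40.9, against 35.1 for those within 100 bp. Of the 12 with no hemogen region within 100000 bp, 4 overlapped an H3K27ac region, 9 a group list peak of H3K27ac and 4 a KO list. Over all BRG1 regions these shares were 63.9%, 89.9% and 55.3%. The most isolated lay at chromosome X from 144318529 to 144318897, with BRG1 folds of 3.77 and 4.85 on 16 and 18 reads, a peak of hemogen library 1 and no KO call.

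Members were spread over all 20 chromosomes, with the highest share on chromosome X. There, 20 of 160 BRG1 regions were members (12.5%, 95% Wilson interval 8.24 to 18.5), against 430 of 13053 on the autosomes (3.29%, 3.0 to 3.61). Median BRG1 strength over all regions was 47.3 on chromosome X and 63.2 on the autosomes. At the autosomal share per decile of strength, 4.83% of the regions on chromosome X would be members. Hemogen library 1 overlapped 13 of the 20 and library 2 overlapped 4, against 208 and 120 of the 430 autosomal members. The hemogen group list overlapped 158 of the 160 BRG1 regions on chromosome X and 13012 of the 13053 on the autosomes. H3K27ac regions overlapped 4 of the 20 (20.0%) and 38.6% of the other BRG1 regions on chromosome X, against 50.0% of the autosomal members and 64.7% of the other autosomal regions. The KO lists called 7 of the 20 (35.0%) and 45.0% of the others on chromosome X, against 32.6% and 56.2% on the autosomes. The part of the lower BRG1 strength on chromosome X beyond this weighting was not tested. On the autosomes the share ran from 1.27% on chromosome 18 to 5.48% on chromosome 8.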

How the data were processed

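Per the submitters' processing notes, MACS2 2.2.7.1, Bowtie2 2.3.5, Picard 2.21.4 and SAMtools 1.9 served, without stated roles. Build, read filters and peak-calling controls are not given in these sources. Peak lists of 8 libraries and of 4 groups were deposited, and whether group lists came from pooled reads is not stated. Each deposited peak has a fold enrichment (a ratio), a −log10 p-value, a −log10 q-value and a summit position, with a smallest −log10 q between 1.30 and 1.37 per list. Between 0 and 10 peaks per list lay on other sequences and were left out. Depth and summit reads were recovered on the assumption that p is a Poisson upper tail and that the fold is (height + 1) / (background + 1). Heights were whole multiples of 1 step, within 0.02 of a read, for 100% of the first 2500 peaks of each library, and 93.6% to 99.0% had 1 solution. Precision is limited by these read numbers. Weighting is direct standardisation over 10 strata. Depth was taken as the lowest background that 5 or more peaks had, divided by the shortest peak width and by the step. Overlap, weighting and recovery were tested on simulated data. The simulated backgrounds all lay above the lowest ones of KO BRG1 libraries 1 and 2, 0.56 and 0.63, and depth was not simulated. The members and comparisons were chosen with earlier results of these data known. The named regions are the 10 strongest members, the 5 strongest without any hemogen peak, with a call in both KO libraries or with H3K27ac, and the 3 nearest the border on each side. Other regions named (clusters, highest background, most isolated) were chosen after their values were seen, as was the look at chromosome X. Gene annotation, motifs, sequences and cell type markers were not analysed here. Python 3.11.15, NumPy 2.4.6, pandas 2.3.3 and SciPy 1.17.1 were used.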

Additional observations from a re-analysis of the deposited data

How the results depend on the processing

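The number of members depended on the lists: 667 at an overlap of 50% of the shorter interval, 547 at a minimum −log10 q of 5, 2556 on group lists and 184 with hemogen regions widened by 500 bp. As a share of BRG1 regions these were 5.05%, 7.86%, 6.79% and 1.39%. Leaving out 1 library gave 306 to 3952 members (2.32% to 15.0%), most without WT BRG1 library 2 (3952) or library 1 (1656), where single peaks stand for regions. Under the same 4 settings the share with any hemogen peak was 84.4%, 97.3%, 5.44% and 87.5% (79.6% to 90.8% with 1 library left out), where group-list members lack a group peak by construction. A hemogen library left out of the member rule still counted towards this share. The median strength was 71.0 at −log10 q of 5, which removes weak peaks by construction, 21.5 on group lists, and 25.6 to 35.2 with 1 library left out.

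The acetylated share was 39.3% at −log10 q of 5, 31.6% on WT group lists, 42.4% with widened hemogen, 88.9% with the H3K27ac group list and 32.8% to 67.8% with 1 library left out. The KO share was 27.4% at −log10 q of 5, 5.28% on WT group lists and 2.22% when both KO libraries had to call it. It was 12.8% to 32.2% with 1 WT BRG1 or hemogen library left out. With KO library 1 or 2 as the only KO list, thus also without the KO group list, it was 5.33% and 13.1%. The acetylation difference from regions with hemogen was −10.6 points at 50% overlap, −6.27 on group lists, −21.8 with widened hemogen, −1.04 with the H3K27ac group list, −1.23 weighted by strength and 6.40 weighted by width, a reversal. It was −16.8 to −8.54 with 1 library left out. The KO difference was −12.1 at −log10 q of 5, −10.2 for both KO libraries, −3.77 weighted by strength and 1.03 weighted by width, also a reversal. It was −27.5 to −24.0 with 1 WT BRG1 or hemogen library left out. With KO library 1 or 2 as the only KO list, it was −13.5 and −16.4. Weighted by strength under every other setting, a choice made after seeing the data, the acetylation difference ran from −8.08 to 9.10 points and was negative in 4 of 11 settings. The KO difference ran from −12.3 to 1.22 and was negative in 11 of 12, at −12.3 and −10.1 without WT BRG1 library 1 or 2. The cause of these moves was not tested unless named. No paired analysis was possible because the results come from no test, and the libraries share only a number. The lower depth of the KO libraries may limit their calls, which was not tested.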
